A study of Homo sapiens with 4 samples.

Results

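The genes described here build, load and switch on major histocompatibility complex (MHC) class I molecules. They are the heavy chain genes HLA-B, HLA-C, HLA-E and HLA-F, the light chain gene B2M, the peptide transporter genes TAP1 and TAP2, the tapasin gene TAPBP, and NLRC5, which encodes a transactivator of class I promoters. They were chosen by name, each as the 1 primary-assembly Ensembl ID of its symbol, and make up 9 of the 64252 gene IDs in the table. All 9 passed the filter on low counts and are among 18817 tested genes. RNA was sequenced from J.gamma1, a subline of the human T cell leukaemia line Jurkat that is known to lack the phospholipase PLCG1. Cells received either 10 µM FB23-2, an inhibitor of the RNA demethylase FTO, or DMSO alone at under 0.1%, for 48 h in both groups. Each group had 2 independent biological samples, and both groups derive from the same line, so that the values describe 1 cell background. Libraries held 24615359 to 37804516 counts, at which 3 counts correspond to 0.0794 to 0.122 CPM, the unit of counts scaled to library size used here. The T cell marker CD3E stood at 384 to 471 CPM in the 4 libraries, and CD2 at 2.96 to 4.73 CPM. All 12 listed T cell markers summed to 1507 to 2070 CPM. The 6 listed B cell markers summed to 42.1 to 48.4 CPM, most of it CD79A (38.9 to 44.5 CPM). These sums fitted the label of a T cell line.

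MHC class I molecules display short peptides from inside the cell to CD8 T cells and to receptors of natural killer cells. A heavy chain pairs with beta-2 microglobulin in the endoplasmic reticulum, where tapasin holds it beside the TAP1 and TAP2 transporter until a peptide delivered from the cytosol fits its groove. Transcription of these genes depends on promoter elements read by NLRC5 with the RFX, CREB/ATF and NF-Y factors, and on elements for interferon regulatory factors and for NF-kappa B.

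To show these elements in the genes themselves, the 200 bases before the start site of 6 of the genes are printed here from RefSeq (GRCh38.p14), 5′ to 3′ on the strand of the gene. Windows of 300 bases, 250 before to 50 after the start, were listed for 7 of the 9 genes. HLA-E and NLRC5 had none. The windows were searched on both strands for GAAA, any 2 bases and GAAA (an interferon-response type), for GGG, any 2 bases, TT, any 1 base and CC (a kappa B type), and for TGACG followed after 15 to 25 bases by ATTGG, the reverse complement of CCAAT, which stand for an X2 box and a Y box. The spaced pair was searched for as 1 unit, and matches of the interferon-response type can overlap each other. Capitals mark these matches. The motifs were chosen after the expression values had been seen.
HLA-B (chr6:31357180-31357379, minus strand): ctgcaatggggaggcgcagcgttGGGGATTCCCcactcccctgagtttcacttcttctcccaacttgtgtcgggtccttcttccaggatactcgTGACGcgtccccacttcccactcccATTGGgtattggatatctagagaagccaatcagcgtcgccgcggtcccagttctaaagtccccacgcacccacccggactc
HLA-C (chr6:31272093-31272292, minus strand): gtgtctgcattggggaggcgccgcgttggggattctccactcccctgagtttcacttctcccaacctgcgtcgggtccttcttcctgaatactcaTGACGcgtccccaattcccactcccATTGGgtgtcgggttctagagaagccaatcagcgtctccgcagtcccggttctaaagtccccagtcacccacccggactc
B2M (chr15:44711317-44711516, plus strand): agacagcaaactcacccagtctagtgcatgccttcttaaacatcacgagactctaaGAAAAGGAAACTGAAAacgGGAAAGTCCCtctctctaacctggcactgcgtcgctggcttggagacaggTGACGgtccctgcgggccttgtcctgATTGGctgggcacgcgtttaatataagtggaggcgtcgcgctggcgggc
HLA-F (chr6:29723234-29723433, plus strand): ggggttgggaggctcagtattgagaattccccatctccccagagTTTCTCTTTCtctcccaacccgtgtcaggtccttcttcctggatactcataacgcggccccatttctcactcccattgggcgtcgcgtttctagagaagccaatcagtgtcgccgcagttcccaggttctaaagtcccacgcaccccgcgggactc
TAP1 (chr6:32853705-32853904, minus strand): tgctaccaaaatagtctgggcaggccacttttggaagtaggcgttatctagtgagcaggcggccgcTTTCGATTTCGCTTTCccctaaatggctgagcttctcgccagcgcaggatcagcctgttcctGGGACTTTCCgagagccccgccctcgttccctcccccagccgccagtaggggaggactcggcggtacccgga
TAP2 (chr6:32838740-32838939, minus strand): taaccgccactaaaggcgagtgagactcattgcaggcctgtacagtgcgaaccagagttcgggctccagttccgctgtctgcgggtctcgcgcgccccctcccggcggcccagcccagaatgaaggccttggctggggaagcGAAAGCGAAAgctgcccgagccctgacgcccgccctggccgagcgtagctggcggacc

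The spaced pair was found in HLA-B, HLA-C and B2M, at -106 and -81, at -105 and -80, and at -75 and -49 from the start site, with 20, 20 and 21 bases between the elements. Of 35116 RefSeq promoter windows of the same length, 157 (0.447%) held such a pair. HLA-F, TAP1, TAP2 and TAPBP had no match of the pair in their windows. The interferon-response type occurred in B2M (2 overlapping matches, the first at -144), HLA-F (-156), TAP1 (2 overlapping matches, the first at -134), TAP2 (-58) and TAPBP (2 overlapping matches, the first at -20), and in 3.57% of all windows. The kappa B type occurred in HLA-B (-177), B2M (-125), TAP1 (-72) and TAPBP (-56), and in 5.68% of all windows. HLA-B and HLA-C had no match of the interferon-response type. The patterns are strict, and looser forms of the elements were not searched for. A missing match therefore does not show that a promoter lacks the element. These are matches of letters, and binding of a factor was not measured.

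In cells given FB23-2, RNA of the light chain and of 3 heavy chains stood at 1.77 to 2.36 times its control level, that of the transporter did not pass the test, and that of the transactivator was lower. By edgeR's quasi-likelihood test with an adjusted p threshold of 0.05, 5 of the 9 genes rose (HLA-B, HLA-C, HLA-E, B2M and TAPBP), 1 fell (NLRC5) and 3 did not pass (HLA-F, TAP1 and TAP2). Over all tested genes, 42.1% were called, 21.8% as higher and 20.3% as lower. An increase of at least 1.5-fold was found for 4 of the 9 genes, against 7.76% of all tested genes. The groups did not overlap for 7 of the 9 genes, against 70.8% of all tested genes. Log2 fold changes are FB23-2 over control, ± SE, with n = 2 per group throughout, and their median was 0.47 for the 9 genes and 0.00 for all tested genes. Levels are CPM after TMM scaling, a measure relative to all RNA of a library, and in such bulk samples fewer cells of a kind and less RNA per cell cannot be told apart.

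**Figure D1:**
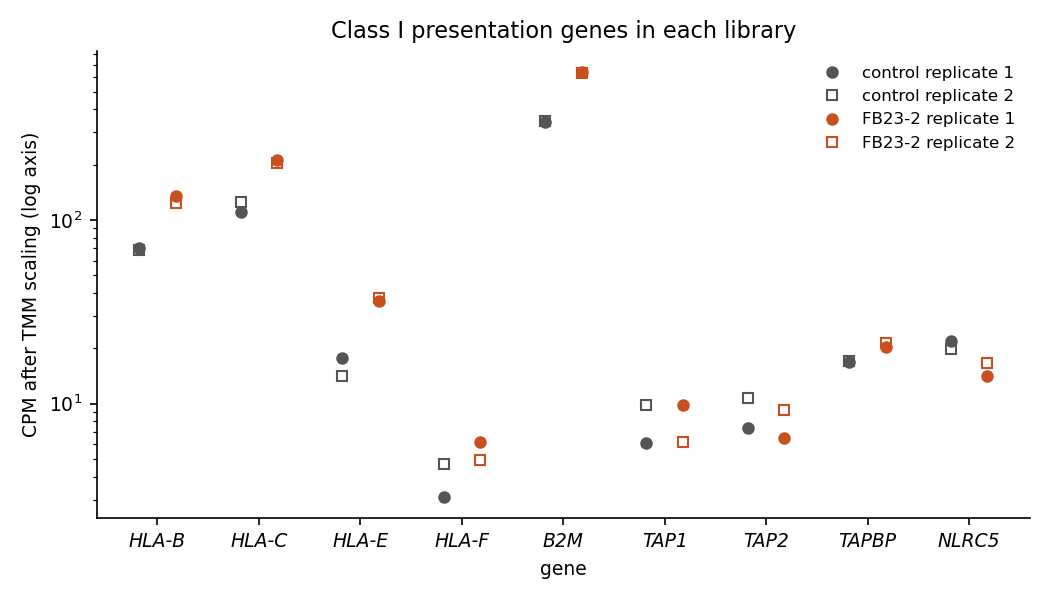
CPM after TMM scaling (log axis) of the 9 class I presentation genes in each of the 4 libraries, control in grey and FB23-2 in orange, with a filled circle for replicate 1 and an open square for replicate 2. The FB23-2 libraries lie above both control libraries for HLA-B, HLA-C, HLA-E, HLA-F, B2M and TAPBP, below both for NLRC5, and among them for TAP1 and TAP2.

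B2M (ENSG00000166710, chromosome 15, 44711487 to 44718877 of hg38) encodes the light chain that all classical heavy chains need to reach the cell surface. It stood at 639 and 635 CPM in the FB23-2 libraries and at 342 and 347 CPM in the control libraries. Both treated libraries were high, and replicates differed by far less than the groups. The rise was 1.85-fold (95% interval 1.75 to 1.96), a log2 fold change of 0.89 ± 0.04 (edgeR adjusted p = 4.99e-07). With GC and length offsets the log2 fold change was 0.79, just below the lower end of that interval (0.81 on the log2 scale).

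The heavy chain genes lie in the MHC on chromosome 6. HLA-B (ENSG00000234745, 31269491 to 31357188), a classical heavy chain, stood at 136 and 124 CPM with FB23-2 and at 70.3 and 68.7 CPM in control. Its treated libraries lay well above both controls, a 1.87-fold rise (1.71 to 2.05; edgeR adjusted p = 3.98e-06). HLA-C (ENSG00000204525, 31268749 to 31272130), a classical heavy chain and the main ligand of killer immunoglobulin-like receptors, stood at 212 and 203 CPM with FB23-2 and at 110 and 125 CPM in control. Again the groups did not overlap, and the rise was 1.77-fold (1.60 to 1.94; edgeR adjusted p = 9.71e-06). HLA-E (ENSG00000204592, 30489467 to 30494205) presents signal peptides of other heavy chains to the NKG2A receptor of natural killer cells. It stood at 36.3 and 37.5 CPM with FB23-2 and at 17.6 and 14.1 CPM in control. The treated libraries were again both high, and the rise was 2.36-fold (2.00 to 2.79) or 1.24 ± 0.11 on the log2 scale (edgeR adjusted p = 2.04e-05).

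HLA-F (ENSG00000204642, 29722775 to 29738528), a nonclassical heavy chain, had 237 and 170 counts with FB23-2 and 75 and 161 counts in control, which is 6.20 and 4.90 CPM against 3.11 and 4.68 CPM. The groups did not overlap, but FB23-2 replicate 2 lay close to control replicate 2. Its log2 fold change of 0.47 had a 95% interval from -0.05 to 0.99 and did not pass (edgeR adjusted p = 0.133, and 0.082 to 0.519 over 12 alternative settings). Leaving out control replicate 1 or 2 moved the log2 fold change to 0.24 or 0.84, and leaving out FB23-2 replicate 1 moved it to 0.27. The interval holds both no change and the size of change seen for HLA-B. On the opposite strand, HLA-F shares 535 of its exon bases (12.3%) with HLA-F-AS1, which had 29 to 113 counts a library, 701 bases (16.1%) with an unnamed pseudogene of 4 to 25 counts, and 257 bases (5.92%) with the pseudogene RPL23AP1 of at most 1 count. Since no strand setting is stated, their reads cannot be told apart.

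Heavy chain genes resemble each other, which can divide reads between them. Stretches of 50 bases in their annotated transcripts were compared with those of all other genes named HLA and of the other genes of this set. Of these stretches, 2.72% in HLA-B, 5.38% in HLA-C, 3.94% in HLA-E and 0.521% in HLA-F also occurred in another of these genes. HLA-B and HLA-C also share 35 exon bases on the same strand. HLA-B shares 542 exon bases (17.8%) with an unnamed pseudogene on the opposite strand, which had at most 2 counts a library. The alleles of this line can differ from the reference, and counts at IDs of alternate MHC haplotypes were not analysed here.

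Heavy and light chain RNA kept a like ratio in the 4 libraries. The summed CPM of the 4 heavy chain genes was 390 and 370 with FB23-2 and 201 and 212 in control. Divided by the CPM of B2M, this gave 0.611 and 0.582 with FB23-2 and 0.587 and 0.612 in control, so that the groups overlapped. The ratio of HLA-C to HLA-B CPM was 1.57 and 1.64 with FB23-2 and 1.56 and 1.82 in control, and these overlapped too. HLA-E relative to B2M was 0.0567 and 0.0591 with FB23-2 and 0.0515 and 0.0405 in control, higher in both treated libraries. These ratios were not tested, since 2 libraries against 2 allow no two-sided exact permutation p under 0.333.

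TAP1 (ENSG00000168394, chromosome 6, 32845209 to 32853978) and TAP2 (ENSG00000204267, 32821833 to 32838780) encode the partner subunits of the transporter that carries peptides into the endoplasmic reticulum. TAP1 stood at 9.76 and 6.14 CPM with FB23-2 and at 6.10 and 9.88 CPM in control. TAP2 stood at 6.49 and 9.25 CPM with FB23-2 and at 7.35 and 10.7 CPM in control. For both genes the groups overlapped and replicates of a group lay well apart. The log2 fold change was -0.04 for TAP1 (95% interval -0.84 to 0.75, edgeR adjusted p = 0.932) and -0.25 for TAP2 (-0.78 to 0.29, edgeR adjusted p = 0.437). The interval for TAP1 still holds a change close to that of HLA-C, whereas that for TAP2 does not reach the change of any of the heavy chains that rose. With 1 library left out at a time, the log2 fold change of TAP1 ran from -0.44 to 0.40 and that of TAP2 from -0.51 to 0.09.

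Summed over both transporter genes, the level was 16.3 and 15.4 CPM with FB23-2 and 13.4 and 20.6 CPM in control, again with overlap. Relative to B2M this was 0.0254 and 0.0242 with FB23-2 and 0.0394 and 0.0593 in control, lower in both treated libraries. The ratio of TAP1 to TAP2 was 1.5 and 0.664 in the FB23-2 replicates and 0.831 and 0.921 in control. TAP2 shares 2064 exon bases (32.3%) with a protein-coding locus without a symbol (ENSG00000250264) on the same strand, which had 5 counts in control replicate 1 and 0 in the other libraries. TAP1 shares 456 exon bases (9.49%) with PSMB8-AS1 on the opposite strand, which had 16 to 32 counts a library.

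TAPBP (ENSG00000231925, chromosome 6, 33299694 to 33314387) encodes tapasin, which bridges the heavy chain to the transporter. It stood at 20.2 and 21.3 CPM with FB23-2 and at 16.9 and 17.1 CPM in control. The treated libraries lay above both controls by a small margin, 1.22-fold, with a log2 fold change of 0.29 ± 0.10 (edgeR adjusted p = 0.0370). The call rested on every library: leaving out FB23-2 replicate 1 or 2 gave an edgeR adjusted p of 0.0785 or 0.137, and leaving out control replicate 1 or 2 gave 0.147 or 0.134. Upper quartile scaling (0.0674), DESeq2 (0.121) and no filter (0.0552) ended it as well, and over all alternatives the adjusted p lay between 0.018 and 0.147.

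NLRC5 (ENSG00000140853, chromosome 16, 56989485 to 57083531) encodes the transactivator that acts on the X and Y boxes of class I promoters, and it fell while heavy chain RNA rose. It stood at 14.2 and 16.7 CPM with FB23-2 and at 21.9 and 19.8 CPM in control. Both treated libraries were low, and the level was 0.743 times that of control, with a log2 fold change of -0.43 ± 0.11 (edgeR adjusted p = 0.0140). Leaving out replicate 1 of either group ended the call (edgeR adjusted p = 0.0812 for FB23-2 and 0.0791 for control). Over all alternatives the adjusted p lay between 0.00886 and 0.0812, and the level was lower with FB23-2 in each of them.

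**Figure D2:**
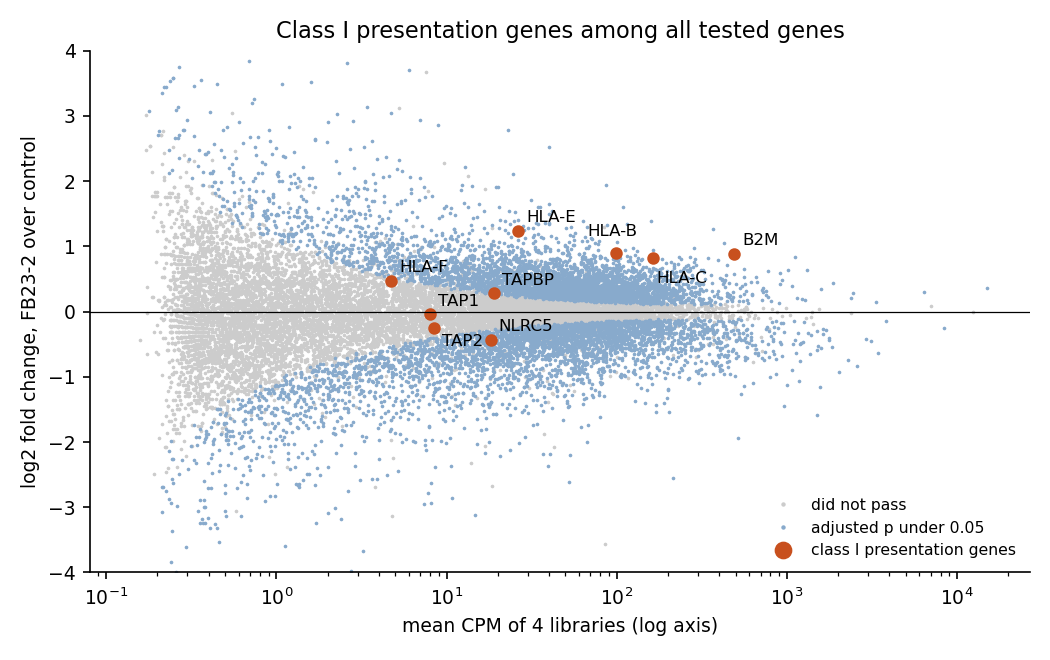
Log2 fold change of FB23-2 over control against mean CPM of the 4 libraries (log axis) for the tested genes, with those of an adjusted p under 0.05 in blue, the others in grey and the 9 class I presentation genes in orange, and 36 genes beyond a log2 fold change of 4 in either direction not drawn. HLA-E, HLA-B, HLA-C and B2M lie between 0.82 and 1.24 above 0, TAPBP at 0.29, and NLRC5 at -0.43.

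Levels of different genes can be compared per length, here as mean CPM per kb of all annotated exons. In control, B2M stood highest at 56.7 CPM per kb, followed by HLA-C at 46.8, HLA-B at 22.8, HLA-E at 5.32 and TAPBP at 3.36. NLRC5 (1.68), TAP1 (1.66), TAP2 (1.41) and HLA-F (0.897) came last. Libraries of NLRC5, TAP1 and TAP2 overlapped: NLRC5 spanned 1.60 to 1.77 CPM per kb, TAP1 1.27 to 2.06 and TAP2 1.15 to 1.68. HLA-F, at 0.717 to 1.08, lay just below them. With FB23-2 the order of the first 5 was the same, at 105 CPM per kb for B2M, 82.9 for HLA-C, 42.5 for HLA-B, 12.4 for HLA-E and 4.11 for TAPBP. TAP1 (1.65), HLA-F (1.28), NLRC5 (1.25) and TAP2 (1.23) followed with overlapping libraries. Exons of B2M include long annotated transcripts, and since the length counts them all the value for B2M would be larger over its main transcript.

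The rest of the class I pathway was read from lists chosen from textbook knowledge. Of 50 listed genes 47 were tested, of which 16 rose, 15 fell and 16 did not pass, with a median log2 fold change of 0.06. That is 34% higher and 31.9% lower, against 21.8% and 20.3% of all tested genes. The number lower was 9 when control replicate 2 was left out.

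Among other class I heavy chains, MR1, which presents vitamin B metabolites to mucosal T cells, rose. It stood at 73.0 and 75.2 CPM with FB23-2 and at 32.5 and 32.9 CPM in control (log2 fold change 1.18 ± 0.06). HLA-G had 0 counts in all libraries and HFE 4 counts in 1, so neither was tested.

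Genes of peptide loading and trimming mostly fell: of 10 tested, 2 rose, 6 fell and 2 did not pass, with a median of -0.21. The chaperones CANX (-0.31 ± 0.04) and CALR (-0.25 ± 0.04), which fold heavy chains and hold them in the loading complex, fell, as did BCAP31 (-0.40 ± 0.06), which helps carry class I molecules out of the endoplasmic reticulum. TAPBPL, a tapasin-related peptide editor, fell by 0.50 (edgeR adjusted p = 0.0299). Leaving out FB23-2 replicate 1 or 2 gave TAPBPL an edgeR adjusted p of 0.0507 or 0.131, and leaving out control replicate 1 or 2 gave 0.0592 or 0.207. DESeq2 (0.0844), no filter (0.051) and GC and length offsets with a replicate block (0.0544) ended the TAPBPL call too, and the alternatives spanned 0.0214 to 0.207. The trimming peptidases ERAP1 (0.37 ± 0.05) and LNPEP (0.31 ± 0.05, or 0.19 with GC and length offsets) rose. PDIA3 (0.08), the disulfide isomerase of the loading complex, did not pass. Scaling by library size alone gave it a call (0.12, adjusted p = 0.0386, alternatives 0.0386 to 0.546). TPP2 (-0.07), a cytosolic peptidase, did not pass either, but was called lower with GC and length offsets (-0.18, adjusted p = 0.0189) and with those and a replicate block (-0.17, adjusted p = 0.0164), and its alternatives spanned 0.0164 to 0.952.

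Of 6 genes of the immunoproteasome and the PA28 activator, 1 rose, 2 fell and 3 did not pass (median -0.07). PSMB9, an inducible catalytic subunit whose gene adjoins TAP1 head to head, stood at 6.57 and 7.09 CPM with FB23-2 and at 1.54 and 3.60 CPM in control (1.31 ± 0.28). This change was 2.15 without control replicate 2 and 0.90 without control replicate 1, with adjusted p values of 0.000948 (DESeq2) to 0.0451 (edgeR) over the alternatives. PSMB10, another inducible subunit, fell by 0.50 on the log2 scale. The PSMB10 call ended when FB23-2 replicate 2 (adjusted p = 0.0821) or control replicate 1 (0.0843) was left out, and its alternatives spanned 0.00445 to 0.0843. PSME3, a nuclear proteasome activator, fell (-0.50 ± 0.05), and PSME1 (-0.11) and PSME2 (-0.02), the PA28 subunits, did not pass. PSME1 was called when FB23-2 replicate 1 was left out (-0.21, adjusted p = 0.0249, alternatives 0.0249 to 0.703). PSMB8, the third inducible subunit, was looked at after its values were seen: it stood at 7.77 and 14.4 CPM with FB23-2 and at 13.0 and 8.60 CPM in control (0.06 ± 0.43). In both groups the replicate with more TAP1 RNA had less PSMB8 RNA.

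Factors that read class I promoters moved in both directions, with 7 of 16 higher, 3 lower and 6 not past the threshold (median 0.17). IRF9 and STAT2, factors of the interferon-stimulated complex, rose. IRF9 stood at 6.96 and 5.25 CPM with FB23-2 and at 2.74 and 2.70 CPM in control (1.17 ± 0.23), and the change of STAT2 was 1.04 ± 0.05. IRF2 (0.42 ± 0.07) rose as well. IRF1, the interferon regulatory factor best known at class I promoters, fell by 0.29 on the log2 scale. The IRF1 call ended when FB23-2 replicate 2 was left out (adjusted p = 0.139), when control replicate 1 or 2 was (0.115 or 0.0583) and with no filter (0.0678), and its alternatives spanned 0.0113 to 0.139. RFXAP, a subunit of the RFX complex that binds with NLRC5, fell (-0.38 ± 0.07). RFX5 (-0.04) and the NF-kappa B subunit RELA (0.15, edgeR adjusted p = 0.0591) did not pass. RELA was called with a replicate block (adjusted p = 0.0451), library size scaling (0.017), GC and length offsets (0.0246) and the offsets with the block (0.02), and its alternatives spanned 0.017 to 0.35.

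Upstream of these factors, 3 of 8 genes of the interferon gamma receptor and its signalling rose, 2 fell and 3 did not pass (median 0.33). The receptor chain IFNGR1 (0.68 ± 0.07) and the kinases JAK1 (0.60 ± 0.05) and JAK2 (0.58 ± 0.10) rose. IRF8, a factor of immune cells, fell from 3.82 and 3.17 CPM in control to 1.02 and 0.84 CPM (-1.88 ± 0.29), and the phosphatase PTPN2, which acts on JAK kinases, fell too (-0.42 ± 0.05). IFNGR2 (0.08) and the inhibitor SOCS3 (-0.33) did not pass.

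Of 5 tested genes of class I turnover and surface control, SUSD6 rose (0.28 ± 0.07) and TRAF3 (-0.35 ± 0.05) and MARCHF9 fell. TMEM127 (0.17) and WWP2 (-0.05) did not pass. SUSD6, TMEM127 and WWP2 are known to act together in the degradation of class I molecules, and MARCHF9 is a membrane ubiquitin ligase. SUSD6 did not pass when control replicate 2 was left out, and its adjusted p spanned 0.00371 to that value of 0.0609. TMEM127 was called with library size scaling (adjusted p = 0.0493, alternatives 0.0493 to 0.462). The fall of MARCHF9 (-0.23 ± 0.07) did not pass when FB23-2 replicate 1 or 2 was left out (adjusted p = 0.0988 or 0.075) or when control replicate 2 was (0.26), nor with library size scaling (0.0811), DESeq2 (0.0613) or no filter (0.0659), and its alternatives spanned 0.0157 to 0.26.

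**Figure D3:**
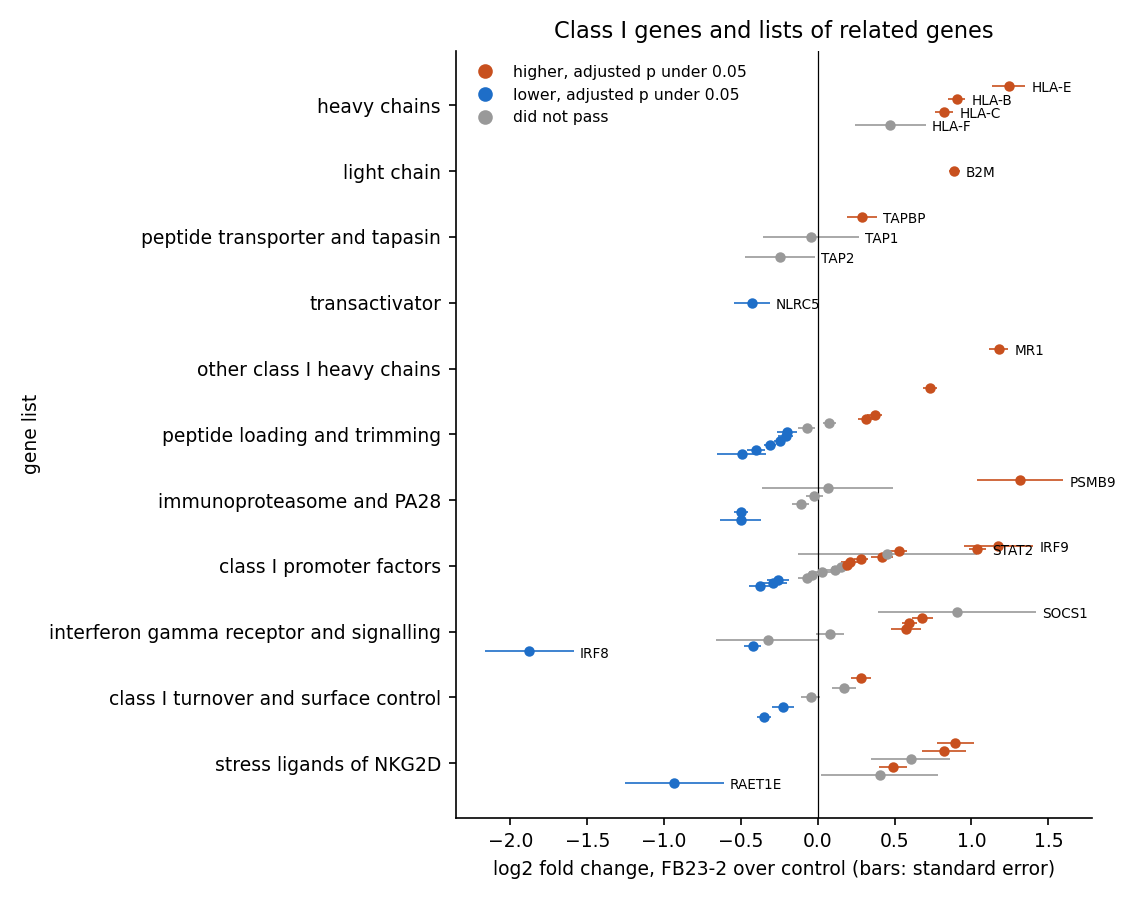
Log2 fold change of FB23-2 over control, with bars of 1 standard error, for each tested gene of the class I lists, higher genes in orange, lower in blue and those that did not pass in grey. Of the genes called higher, PSMB9 (1.31), HLA-E (1.24), MR1 (1.18), IRF9 (1.17) and STAT2 (1.04) lie furthest to the right, and IRF8 (-1.88) and RAET1E (-0.93) furthest to the left of those called lower.

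Ligands of NKG2D, an activating receptor of natural killer cells, are distant relatives of class I heavy chains that need no B2M. Of 6 tested, 3 rose, 1 fell and 2 did not pass (median 0.55). ULBP2 (0.90 ± 0.12), MICB (0.82 ± 0.14) and ULBP1 (0.49 ± 0.09) rose. RAET1E fell (-0.93 ± 0.32), but did not pass when FB23-2 replicate 1 or 2 was left out (adjusted p = 0.139 or 0.116) or when control replicate 2 was (log2 fold change -0.41, adjusted p = 0.49). Library size scaling (0.0521), DESeq2 (0.116), no filter (0.092) and GC and length offsets with a replicate block (0.051) ended the RAET1E call too, and its alternatives spanned 0.0196 to 0.49. MICA (0.61 ± 0.26, edgeR adjusted p = 0.0886) and RAET1G (0.40 ± 0.38) did not pass.

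Class II presentation genes, which use neither B2M nor TAP, were near 0, with 4 of 12 tested and summed levels of 2.41 and 2.19 CPM with FB23-2 and 1.70 and 1.83 CPM in control. HLA-DRB1 rose, from 3 and 5 counts in control to 28 and 17 counts (2.14 ± 0.64), the others did not pass, and HLA-DRA had 0 counts in all libraries. HLA-DRB1 did not pass when FB23-2 replicate 1 was left out (adjusted p = 0.115), when control replicate 1 or 2 was (0.113 or 0.136) or with DESeq2 (0.0985), and its alternatives spanned 0.0165 to 0.136.

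The heavy chain, transporter and tapasin genes share the MHC with many others. Between the start of HLA-F and the end of TAPBP, 109 other genes were tested, of which 15 rose (13.8%), 10 fell (9.17%) and 84 did not pass, with a median log2 fold change of 0.06. Over all tested genes 21.8% rose and 20.3% fell, and the replicate differences given next were wider among these neighbours.

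Replicates differed more for some of these genes than for others. Taken as the mean absolute log2 difference between replicates of a group, the gap was 0.0162 for B2M, 0.0802 for HLA-B, 0.125 for HLA-C, 0.185 for HLA-E, 0.0482 for TAPBP and 0.188 for NLRC5. It was 0.677 for TAP1, 0.525 for TAP2 and 0.457 for HLA-F. Among all 4420 tested genes at 4 to 25 CPM, a band chosen after the data were seen to hold TAP1, TAP2, HLA-F, TAPBP and NLRC5, the median gap was 0.149 and the 90th percentile 0.374. TAP1, TAP2 and HLA-F lay above that percentile. Reads of these genes and of PSMB8 could also be counted at IDs of alternate MHC haplotypes, which were not analysed here, so their part in these gaps and in the values of these genes was not tested. The 49 MHC neighbours in the band had a median of 0.251 and a 90th percentile of 0.634, and 30.6% of them were called, against 44.3% of all genes in the band. The 144 other chromosome 6 genes in the band had a median of 0.129, and 52.8% were called.

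**Figure D4:**
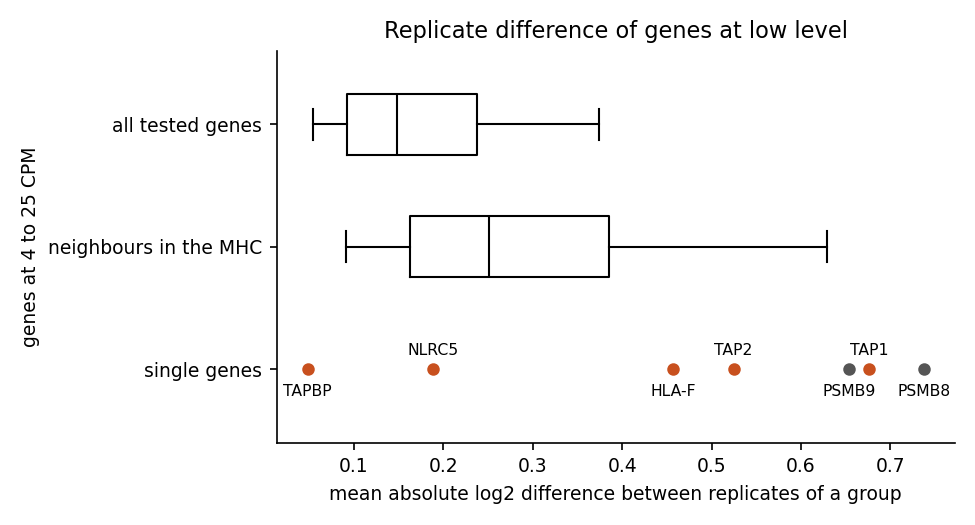
Mean absolute log2 difference between replicates of a group for genes at 4 to 25 CPM, as boxes of quartiles with whiskers at the 10th and 90th percentiles for all 4420 tested genes and for 49 MHC neighbours, and as points for single genes. TAP1 (0.677), TAP2 (0.525) and HLA-F (0.457) lie beyond the upper whisker of all genes at 0.374, and TAPBP (0.0482) lies to the left of its box.

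Markers of the cell line itself and of other blood cells were read beside these results. Of 12 T cell markers, 1 rose, 8 fell and 3 did not pass (median -0.45), and their summed level was 1588 and 1507 CPM with FB23-2 and 2070 and 2063 CPM in control. CD3D (-0.76 ± 0.04), CD7 (-0.74 ± 0.07), ZAP70 (-0.69 ± 0.04) and CD3G (-0.58 ± 0.07) fell, and TRAC rose (0.70 ± 0.08). Of 8 myeloid markers 4 were tested and 1, CD68, which encodes a lysosomal glycoprotein, rose from 15 and 35 counts to 337 and 478 counts (3.71 ± 0.39). Their summed level was 11.5 and 16.1 CPM with FB23-2 and 3.78 and 3.28 CPM in control. The defining marker CD14 had 2 to 5 counts and FCGR3A 0 to 2 counts a library. ITGAM had 71 and 29 counts with FB23-2 and 27 and 30 in control, LYZ 10 and 21 against 26 and 20, and neither passed. CSF1R had 10 and 4 counts with FB23-2 and 0 and 4 in control. S100A8 had 0 to 7 and S100A9 9 to 15 counts a library. B cell markers, of which 3 were tested and did not pass, summed to 46.1 to 47.8 CPM with FB23-2 and 42.1 to 48.4 CPM in control, and natural killer markers, of which 2 were tested and did not pass, to 6.52 to 6.95 CPM and 4.03 to 4.59 CPM. The part of these shifts in the class I results was not tested.

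The genes whose pattern over the 4 libraries was most like that of B2M were CLDN12, METTL25B and RGS2, by Euclidean distances of 0.0100, 0.0162 and 0.0262 between centred log2 CPM values, out of 11070 genes at a mean of 5 CPM or more. Those most like NLRC5 were PTCD2, NDUFAF6 and ACACA, at 0.0468, 0.0517 and 0.0530. Over 4 libraries in 2 groups, such a distance is small for any gene with the same difference between groups and small replicate gaps.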

How the data were processed

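RNA-seq was measured in 4 libraries. The authors deposited 1 table of raw counts, whole numbers without normalization. Per the submitters' processing notes, HISAT2 2.2.0, StringTie and hg38 were used. Not given in the sources used here are the counting step, the StringTie version, the annotation release and the strand setting. Symbols came from a supplied list and coordinates from GENCODE 29, which held 56591 of the 64252 IDs. The other IDs took 1.83% to 1.92% of a library's counts and stayed in the test. Replicate libraries differed beyond sampling noise (chi-square per degree of freedom 6.69 and 7.48), so none was a copy.

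Counts were filtered with filterByExpr (minimum count 10), scaled by TMM and tested with the quasi-likelihood test of edgeR 4.0.16 in R 4.3.3 (robust, all 4 libraries, no covariate), with Benjamini-Hochberg adjustment over 18817 genes. The SE is the absolute log2 fold change over the square root of F. The fit was tested on simulated data for this comparison, with all 18817 genes, of which 50 were changed at each size and the rest were not. It recovered 16%, 40%, 48% and 78% of genes changed 1.25-, 1.5-, 2- and 4-fold, with 14 false calls among the unchanged genes. In the data themselves 42.1% of genes were called. The adjustment depends on the share of changed genes, so these rates do not carry over to the results above. The 3-count floor covers counting error only. The p-values set the difference between groups against the spread between these samples, with each gene's spread estimated partly from all tested genes.

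The genes and lists were chosen with earlier results of these data known. Every class I gene of the set is named. Of each other list, up to 4 called genes with the largest change in the direction with more calls, up to 2 in the other, and up to 2 abundant uncalled genes are named, besides genes that overlap exons of the 9 (overlaps of other genes were not examined), genes of most like pattern, and genes at or near 0 counts. Some genes that this rule takes are not reported here. Alternatives were RLE, library size and upper quartile scaling, DESeq2 1.42.0, no filter, a replicate block, offsets for GC content and length, both together, and leaving out each library.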

Additional observations from a re-analysis of the deposited data

How the results depend on the processing

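HLA-B, HLA-C, HLA-E and B2M kept direction and call under all 12 alternatives. With upper quartile scaling, DESeq2 and no filter TAPBP stood at 0.25, 0.28 and 0.28 (log2) and was not called. With 1 library left out at a time, TAPBP ran from 0.25 to 0.31, NLRC5 from -0.54 to -0.33, TAP1 from -0.44 to 0.40 and TAP2 from -0.51 to 0.092. The number of class I genes of the set called lower was then 0 to 1, and that of the other pathway genes called lower 9 to 12, against 15 with all libraries. TPP2 ran from -0.16 to 0.0065, PSMB8 from -0.43 to 0.43, PSME2 from -0.085 to 0.020, SOCS3 from -0.62 to 0.18 and WWP2 from -0.11 to 0.010, none of which was called in the fit reported above, although TPP2 was called lower with GC and length offsets. With library size scaling the signs of TAP1 (0.0025), PSME2 (0.024), RFX5 (0.011) and WWP2 (0.00098) turned, and PSME2 was 0.0017 with GC and length offsets and 0.0014 with those and the block. Why these values moved was not tested, though leaving out a library leaves fewer samples. Scaling moved the median of all genes by at most 0.05. Same-numbered libraries share only a number by the labels, and over the 2 pairs their deviations correlated at 0.245 across 11851 genes. With a replicate block, 4237 genes were higher and 4031 lower against 4099 and 3820, and 5 and 1 of the class I genes, and of the other genes named RELA gained its call (edgeR adjusted p = 0.0451). The block changed no other call among the genes followed under the alternatives. Some named genes were not followed, among them ERAP2, NPEPPS, CD3E, CD2, HLA-F-AS1 and the genes most like B2M or NLRC5 in pattern. With the offsets and the block NLRC5 was -0.36 (edgeR adjusted p = 0.0432). Counts summed over all IDs that share a symbol were not run. Precision is limited by 2 samples per group, with a coefficient of variation of 10.5% between replicates.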
